A study of Mus musculus with 7 samples.

Results

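The 10 genes described here are 9 Toll-like receptor genes, Tlr1, Tlr2, Tlr3, Tlr4, Tlr6, Tlr9, Tlr11, Tlr12 and Tlr13, and Unc93b1, whose protein carries the endosomal receptors to their compartment. They were taken by name from the 27179 genes of the count files, through Entrez identifiers matched to mouse symbols, and all 10 were found and passed the filter on low counts that left 10863 genes. RNA-seq had been run on 7 sorted samples of CD8 dendritic cells from C57BL/6 mice in 3 groups: CpG CD103 high (2 samples, treated with CpG), CD103 low (2 samples, untreated) and CD103 negative (3 samples, untreated). CpG names short DNA stretches sensed by the product of Tlr9, and CD103 is the integrin alpha E chain. The study concerned CD8 dendritic cells after a systemic inflammatory syndrome. CpG treatment and a high level of CD103 coincided, so their contributions cannot be told apart, and the sources used here give neither dose, time after treatment, sex nor age. The CpG CD103 high samples and CD103 negative replicates 1 and 2 were dated 2012, and both CD103 low samples and CD103 negative replicate 3 were dated 2013. All 10 genes are protein-coding, and their coordinates are those of RefSeq on GRCm38 (mm10). What the date marks is not stated, and the design text calls the samples of a group biological replicates.

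Toll-like receptors sense microbial products. Tlr1, Tlr2, Tlr4 and Tlr6 encode receptors of the cell surface that bind lipoproteins and lipopolysaccharide, while Tlr3, Tlr9, Tlr11, Tlr12 and Tlr13 encode receptors that work inside endosomes. The endosomal receptors leave the endoplasmic reticulum with UNC93B1, are cut by proteases, and then signal through MyD88 or, for TLR3, through TRIF. CD8 dendritic cells, a type 1 conventional subset, are known for high TLR3 and for the profilin receptors TLR11 and TLR12.

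The libraries held between 4474211 and 4629181 counts. Markers of type 1 conventional dendritic cells were present throughout: the 10 listed summed to 21518 and 21692 CPM (counts per 1000000 counts of the TMM-scaled library) in CpG CD103 high cells, 16317 and 16842 CPM in CD103 low cells and 14409 to 15951 CPM in CD103 negative cells. In the edgeR test given below, 6 of the 10 were higher in CpG CD103 high than in CD103 negative cells and 0 lower, beside 14.5% and 11.8% of all genes. The part of this difference in the receptor levels was not tested. Itgae, the CD103 gene, had 992 and 1019 CPM in CpG CD103 high cells, 346 and 375 CPM in CD103 low cells and 54.3 to 62.7 CPM in CD103 negative cells. CD103 negative replicate 3 stood apart by markers of other dendritic cells, with Siglech at 19.2 CPM against 0.216 to 4.77 CPM in the other libraries, and CD103 low replicate 2 by the T cell transcripts Trbc2 (10.6 CPM) and Thy1 (10.3 CPM).

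Most endosomal receptor genes, and 1 surface receptor gene, differed between the treated cells and the CD103 negative cells. Of 5 endosomal receptor genes, 4 rose in CpG CD103 high cells against CD103 negative cells and 1 did not pass the test. Unc93b1 also passed, narrowly. Of 4 surface receptor genes, 1 fell, Tlr2, and 3 did not pass. Together 6 of the 10 genes passed the test, against 26.3% of all 10863 genes tested (edgeR quasi-likelihood test with group and date as terms, Benjamini-Hochberg adjusted p under 0.05). The count was 4 with DESeq2 or with no filter on low counts, and 3 with no date term, where Tlr3 and Tlr12 were the only endosomal receptor genes called. Of all genes DESeq2 called 1459 of 10863, the fit with no filter 2214 of 16457 and that with no date term 1589 of 10863. In the reported fit the median log2 fold change of the 10 genes was 0.30, beside -0.0070 over all genes tested. CPM values of the 2 groups did not overlap for 7 of the 10 genes, against 44.7% of all genes. The sequences around the start sites of 4 of these genes follow.

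The windows run from 250 bases before to 50 bases after a RefSeq start site (GRCm38.p6, 5′ to 3′ on the gene's own strand) and are shown for the gene that rose most (Tlr3), the gene that fell (Tlr2), the CpG receptor (Tlr9) and the profilin receptor Tlr11. Capitals mark matches to any of 4 motifs that were searched on both strands, overlaps allowed.
Tlr3 (chr8:45410331-45410630, minus strand): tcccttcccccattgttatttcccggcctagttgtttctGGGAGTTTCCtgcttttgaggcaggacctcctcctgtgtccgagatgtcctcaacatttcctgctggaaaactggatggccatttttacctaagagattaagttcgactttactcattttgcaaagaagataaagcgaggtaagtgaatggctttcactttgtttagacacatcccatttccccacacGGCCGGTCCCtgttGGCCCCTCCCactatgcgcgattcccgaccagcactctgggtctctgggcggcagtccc
Tlr2 (chr3:83841559-83841858, minus strand): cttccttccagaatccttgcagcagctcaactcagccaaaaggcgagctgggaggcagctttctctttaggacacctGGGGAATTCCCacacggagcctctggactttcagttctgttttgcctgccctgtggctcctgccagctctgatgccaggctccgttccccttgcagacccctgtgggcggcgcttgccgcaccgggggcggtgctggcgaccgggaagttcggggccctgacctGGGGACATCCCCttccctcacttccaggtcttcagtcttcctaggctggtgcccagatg
Tlr9 (chr9:106222348-106222647, plus strand): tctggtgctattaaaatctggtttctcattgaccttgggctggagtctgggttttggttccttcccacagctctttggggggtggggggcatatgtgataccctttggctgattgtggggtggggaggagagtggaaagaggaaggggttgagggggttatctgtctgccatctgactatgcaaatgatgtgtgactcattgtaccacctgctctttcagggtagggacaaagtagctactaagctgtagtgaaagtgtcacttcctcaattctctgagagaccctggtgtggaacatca
Tlr11 (chr14:50357664-50357963, plus strand): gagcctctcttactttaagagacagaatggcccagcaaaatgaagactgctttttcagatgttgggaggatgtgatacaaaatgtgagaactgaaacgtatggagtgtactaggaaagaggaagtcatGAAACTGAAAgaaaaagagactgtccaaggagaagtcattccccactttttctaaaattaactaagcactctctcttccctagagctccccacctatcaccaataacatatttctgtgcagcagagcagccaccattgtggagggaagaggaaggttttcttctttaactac
The motifs were the interferon-stimulated response element core (GAAA and GAAA with any 2 bases between), a STAT site (TTC and GAA with any 3 between), the kappa B core (GGG and CC with any 5 between) and an ETS-IRF composite (GGAA and GAAA with any 2 between). Of 32851 windows of the same length they were found in 3.44%, 8.30%, 50.8% and 2.72%. The capitals of Tlr3 and Tlr2 mark kappa B core matches, the most common of these patterns, while the capitals of Tlr11 mark an interferon-stimulated response element core whose leftmost base lies 122 bases before the start. The Tlr9 window holds none of these letters. Windows were found for all but Tlr4 and Unc93b1, and a match is a description of the letters only. For Tlr3 and Tlr2 the start site used lies inside the gene span given below, and for Tlr9 and Tlr11 at its start.

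**Figure D1:**
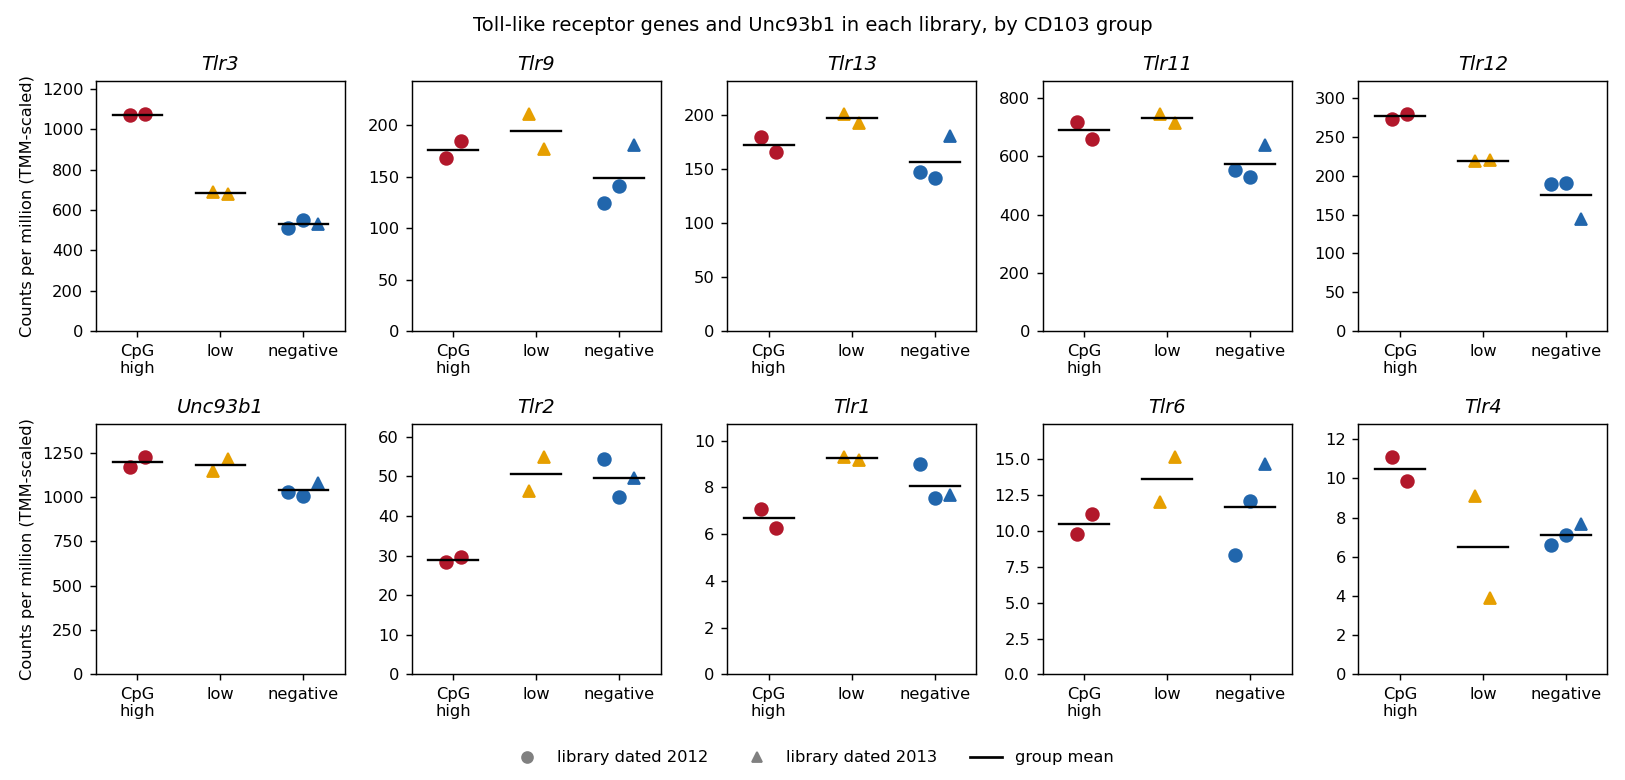
CPM on the TMM-scaled library size (y axis, from 0) of each of the 10 genes in each library, by group (x axis: CpG CD103 high, CD103 low, CD103 negative); circles are libraries dated 2012, triangles 2013, and bars are group means. Tlr3 separates all 3 groups, Tlr2 is lowest in both CpG CD103 high libraries, and for Tlr9, Tlr11, Tlr12 and Tlr13 the CD103 negative library of 2013 lies apart from the other 2.

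Tlr3 (Entrez 142980, chromosome 8, 45395665 to 45411075) encodes the sensor of double-stranded RNA that signals through TRIF. CpG CD103 high cells had 1069 and 1078 CPM of it, CD103 low cells 690 and 682 CPM, and CD103 negative cells 509, 553 and 532 CPM. All 3 groups lay apart with no overlap, and the CD103 negative library of 2013 lay between the earlier 2. The log2 fold change of CpG CD103 high over CD103 negative was 1.01 (SE 0.08, a 2.02-fold rise, edgeR adjusted p 4.61e-05), rank 40 by p among all genes tested. It kept its call in all 15 alternative analyses, with log2 fold changes between 0.95 and 1.08. An antisense transcript overlaps Tlr3 on the other strand, and since the strand setting of the counting is not stated, its reads could not be told from those of Tlr3.

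Tlr9 (Entrez 81897, chromosome 9, 106222598 to 106226876) encodes the receptor of unmethylated CpG DNA itself. Its level was 168 and 185 CPM in CpG CD103 high cells, 211 and 177 CPM in CD103 low cells, and 125, 141 and 180 CPM in CD103 negative cells. Within the libraries of 2012 both CpG CD103 high values lay above both CD103 negative values, but CD103 negative replicate 3 of 2013 reached the level of the CpG CD103 high libraries, so the groups overlapped. The fit with the date term gave a log2 fold change of 0.41 (SE 0.11, 1.33-fold, edgeR adjusted p 0.0232). The call was lost in 5 of 15 alternatives: with no filter on low counts (edgeR adjusted p 0.0527), with DESeq2 (adjusted p 0.051), without the date term (0.25, edgeR adjusted p 0.326), without CpG CD103 high replicate 2 (0.33, edgeR adjusted p 0.128) and without CD103 negative replicate 1 (0.33, edgeR adjusted p 0.135). Over the alternatives the adjusted p ran from 0.0232 to 0.326. In bulk samples such as these, fewer cells of a type and less RNA per cell cannot be told apart. The 7 listed markers of B cells, which also express Tlr9, summed to 11.8 and 13.2 CPM in CpG CD103 high cells and to 76.7 to 94.2 CPM in CD103 negative cells, and 3 of 3 tested were lower. Cd79a and Fcmr were at 0 in both CpG CD103 high libraries and at most at 1.149 CPM in any other library. The 9 plasmacytoid dendritic cell markers, another type with Tlr9, summed to 203 and 227 CPM in CpG CD103 high cells. In CD103 negative cells they summed to 184 to 252 CPM, with 1 of 6 tested called higher in CpG CD103 high cells and 2 lower. Tcf4 was lower in CpG CD103 high than in CD103 negative cells (11.98 and 14.3 against 29.2 to 64.1 CPM). So was Spib (0.666 and 1.79 against 5.60 to 19.2 CPM). Pacsin1 (61.01 and 56.5 against 9.92 to 14.5 CPM) and Bst2 (72.1 and 70.1 against 58.3 to 67.9 CPM) were higher. The other markers overlapped. Siglech, Tcf4 and Spib were highest in CD103 negative replicate 3, whose Tlr9 reached the CpG CD103 high level. The part of either cell type in the Tlr9 level was not tested.

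Tlr13 (Entrez 279572, chromosome X, 106143275 to 106160493), the mouse sensor of bacterial ribosomal RNA, followed a like order. It had 179 and 165 CPM in CpG CD103 high cells, 201 and 193 CPM in CD103 low cells, and 147, 142 and 180 CPM in CD103 negative cells. As for Tlr9, replicate 3 was the only CD103 negative library to reach the CpG CD103 high values, and the CD103 low libraries reached them too. The log2 fold change of CpG CD103 high over CD103 negative was 0.26 (SE 0.09) and missed the threshold (edgeR adjusted p 0.0552), as it did in all 15 alternatives.

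Tlr11 and Tlr12 encode receptors of protozoan profilin that pair with each other in mice. Tlr11 (Entrez 239081, chromosome 14, 50357914 to 50363663) had 719 and 661 CPM in CpG CD103 high cells, 747 and 715 CPM in CD103 low cells, and 555, 530 and 638 CPM in CD103 negative cells. The CpG CD103 high and CD103 negative libraries did not overlap, and the log2 fold change was 0.35 (SE 0.08, edgeR adjusted p 0.0131). Its call was lost without the date term (0.27, edgeR adjusted p 0.117), without CpG CD103 high replicate 1 (0.28, edgeR adjusted p 0.057) and without CD103 negative replicate 2 (0.31, edgeR adjusted p 0.074).

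Tlr12 (Entrez 384059, chromosome 4, 128615446 to 128618619) had 273 and 280 CPM in CpG CD103 high cells, 218 and 220 CPM in CD103 low cells, and 189, 191 and 145 CPM in CD103 negative cells. Here the CD103 negative library of 2013 was the lowest of all 7, whereas for Tlr9, Tlr11 and Tlr13 it was the highest of the CD103 negative libraries. Both CpG CD103 high libraries were above all others, with a log2 fold change over CD103 negative of 0.54 (SE 0.08, edgeR adjusted p 0.00104) that kept its call in all 15 alternatives.

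Unc93b1 (Entrez 54445, chromosome 19, 3935158 to 3949340), the chaperone, had 1170 and 1227 CPM in CpG CD103 high cells, 1148 and 1218 CPM in CD103 low cells, and 1031, 1005 and 1078 CPM in CD103 negative cells. It was the steadiest of the 10 genes, with an SD of log2 CPM over the 7 libraries of 0.12 against 0.19 to 0.46 for the others. The log2 fold change of CpG CD103 high over CD103 negative was 0.24 (SE 0.08, a 1.18-fold difference, edgeR adjusted p 0.0472), and only 1 of 15 alternatives, limma voom, kept the call.

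Among surface receptors, Tlr2 (Entrez 24088, chromosome 3, 83836272 to 83841824), which senses bacterial lipoproteins together with TLR1 or TLR6, had 28.4 and 29.6 CPM in CpG CD103 high cells, 46.3 and 54.9 CPM in CD103 low cells, and 54.5, 44.8 and 49.6 CPM in CD103 negative cells. Both CpG CD103 high libraries lay below every untreated library. Against CD103 negative the log2 fold change was -0.78 (SE 0.15, edgeR adjusted p 0.00427), and all 15 alternatives kept the call. Markers of monocytes, macrophages and neutrophils, cells that also express Tlr2, moved the same way as a sum: the 10 listed came to 406 and 340 CPM in CpG CD103 high cells and to 521 to 651 CPM in CD103 negative cells, with 2 of 8 tested members higher and 4 lower. Their part in the Tlr2 level was not tested.

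The partners of Tlr2 were scarce. Tlr1 (Entrez 21897, chromosome 5, 64924680 to 64933600) held 28 to 41 counts per library and Tlr6 (Entrez 21899, chromosome 5, 64953092 to 64970942) held 38 to 69. In CpG CD103 high cells Tlr1 had 7.10 and 6.28 CPM, against 9.31 and 9.20 CPM in CD103 low cells and 9.0, 7.55 and 7.66 CPM in CD103 negative cells, a log2 fold change over CD103 negative of -0.30 (SE 0.24, edgeR adjusted p 0.386). Tlr6 had 9.76 and 11.2 CPM in CpG CD103 high cells, 12.03 and 15.2 CPM in CD103 low cells and 8.34, 12.1 and 14.7 CPM in CD103 negative cells, and against CD103 negative its log2 fold change was 0.04 (SE 0.25, edgeR adjusted p 0.932). Neither difference passed the test, though both CpG CD103 high values of Tlr1 lay below those of all 5 untreated libraries. The genes are neighbours with similar sequence: 15.3% of the stretches of 50 bases in the longest Tlr1 transcript occur in Tlr6 too, and 12.6% of those of Tlr6 occur in another gene, mostly Tlr1, so reads may be shared between them. None of the other genes shared such a stretch with another gene, apart from Tlr3 with its antisense transcript (1.56%).

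Tlr4 (Entrez 21898, chromosome 4, 66827551 to 66846581), the receptor of lipopolysaccharide, was equally scarce at 17 to 50 counts per library. It had 11.1 and 9.86 CPM in CpG CD103 high cells, 9.08 and 3.91 CPM in CD103 low cells, and 6.59, 7.11 and 7.66 CPM in CD103 negative cells. Both CpG CD103 high values were above the others, but the log2 fold change over CD103 negative of 0.61 (SE 0.33) did not pass (edgeR adjusted p 0.198).

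Of the remaining mouse family members, Tlr5, the flagellin receptor, and Tlr7 and Tlr8, receptors of single-stranded RNA, were too low to test. Tlr7 had 2 and 0 counts in CpG CD103 high cells, 6 and 1 in CD103 low cells, and 0, 1 and 23 in CD103 negative cells. Tlr5 had 0 counts in both CpG CD103 high libraries, 1 and 0 in CD103 low cells and 0, 0 and 12 in CD103 negative cells. Both genes were thus highest in CD103 negative replicate 3, the library with the highest Siglech (19.2 CPM) and Cd209a (21.3 CPM), markers of plasmacytoid and type 2 conventional dendritic cells, and the part of such cells in it was not tested. Tlr8 had 0 counts in both CpG CD103 high libraries, 4 and 0 in CD103 low cells and 0, 0 and 1 in CD103 negative cells. For the treated libraries a count of 0 allows up to 0.666 and 0.672 CPM (3 counts, counting error only).

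**Figure D2:**
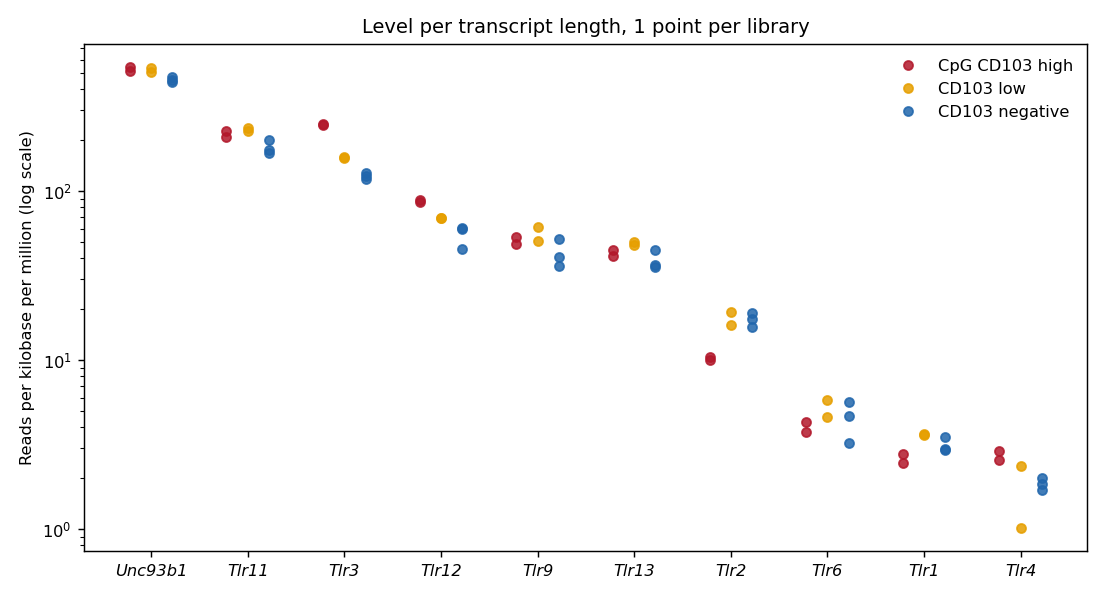
RPKM (CPM divided by the gene length in kilobases, log scale) of the 10 genes, 1 point per library, genes ordered by their CD103 negative mean (x axis) and coloured by group. Unc93b1 and the 5 endosomal receptor genes lie above Tlr2 in every group, and the other surface receptor genes lie lowest.

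Per length of gene model, the endosomal receptor genes were abundant and the surface receptor genes scarce. In CpG CD103 high cells the order of mean RPKM was Unc93b1 (529), Tlr3 (248), Tlr11 (218), Tlr12 (87.1), Tlr9 (50.8), Tlr13 (43.0), Tlr2 (10.2), Tlr6 (4.03), Tlr4 (2.72) and Tlr1 (2.61), and only the last 2 overlapped over the libraries. In CD103 low cells the order was Unc93b1 (522), Tlr11 (231), Tlr3 (159), Tlr12 (68.99), Tlr9 (55.9), Tlr13 (49.1), Tlr2 (17.7), Tlr6 (5.23), Tlr1 (3.60) and Tlr4 (1.69), with no overlap of neighbours. In CD103 negative cells it was Unc93b1 (458), Tlr11 (182), Tlr3 (123), Tlr12 (55.1), Tlr9 (42.8), Tlr13 (38.9), Tlr2 (17.4), Tlr6 (4.5), Tlr1 (3.14) and Tlr4 (1.85), where Tlr12 and Tlr9, Tlr9 and Tlr13, and Tlr6 and Tlr1 overlapped.

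The exchange of place between Tlr3 and Tlr11 was the clearest change of order. Tlr3 exceeded Tlr11 in both CpG CD103 high libraries (247 and 249 RPKM for Tlr3 against 227 and 209 RPKM for Tlr11) and was below it in all 5 untreated libraries. Tlr3 made up 36.7% and 37.7% of the summed RPKM of the 9 receptor genes in CpG CD103 high cells, 26.5% and 27.1% in CD103 low cells, and 24.8% to 28.0% in CD103 negative cells. The share of Tlr9, the CpG receptor gene, overlapped between CpG CD103 high and CD103 negative cells, with 7.18% and 8.07% in CpG CD103 high cells, 10.1% and 8.76% in CD103 low cells, and 7.93% to 10.5% in CD103 negative cells. The summed level itself was 673 and 660 RPKM in CpG CD103 high cells, 602 and 582 RPKM in CD103 low cells, and 453 to 495 RPKM in CD103 negative cells, and the groups did not overlap. Between CpG CD103 high and CD103 low cells only Tlr3, Tlr12 and Tlr4 had the higher mean in the treated cells, and the other receptor genes had the lower.

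**Figure D3:**
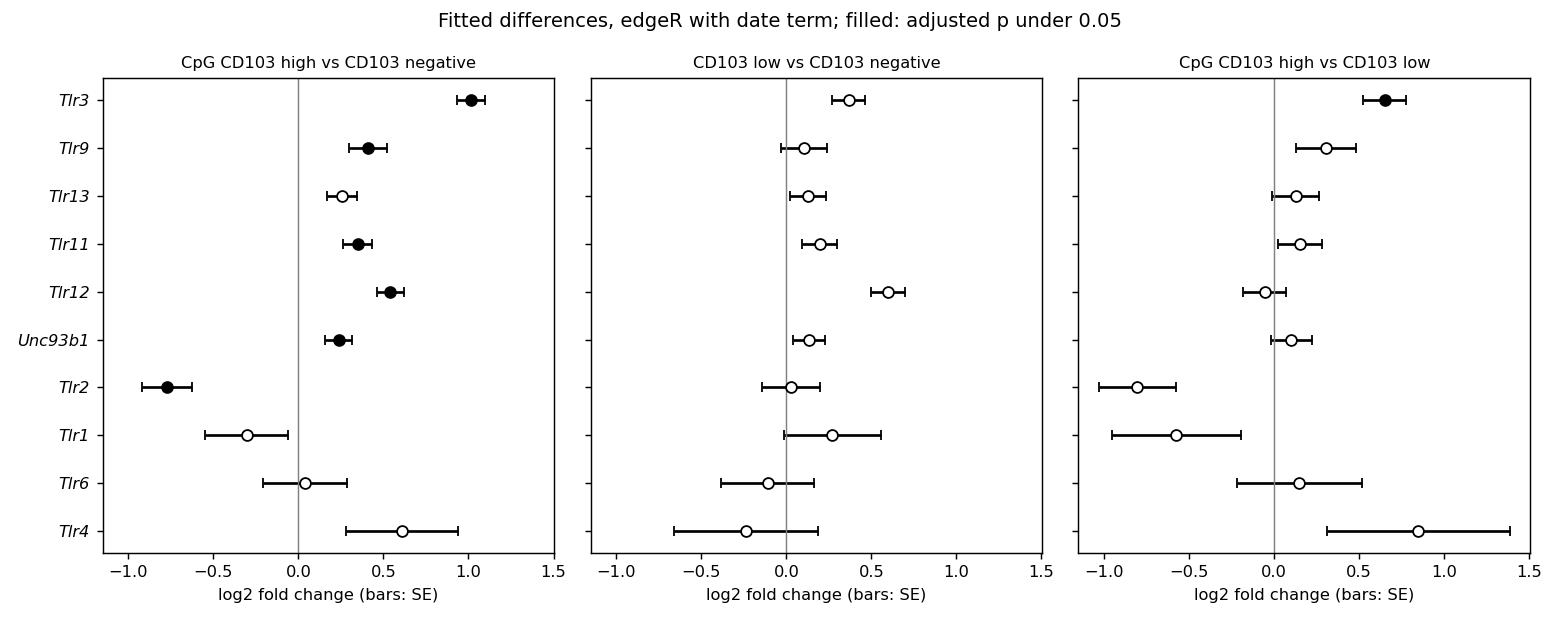
Log2 fold change of each gene (x axis, bars are SE) in each of the 3 comparisons (panels), from the edgeR fit with group and date to all 7 libraries; filled points had an adjusted p under 0.05. Tlr3, Tlr9, Tlr11, Tlr12 and Unc93b1 are filled and positive and Tlr2 filled and negative in the first panel, no point is filled in the second, and Tlr3 alone in the third.

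Without treatment, CD103 low cells had positive log2 fold changes of all 5 endosomal receptor genes, none of which passed the test. In CD103 low cells against CD103 negative cells 0 of the 10 genes were called by edgeR, against 0.138% of all genes (0.0552% higher and 0.0829% lower). DESeq2 called 1 and limma voom 0, beside 40 and 19 of all 10863 genes, though DESeq2 gave no adjusted p for 6318 of them. By edgeR 2 of the 10 genes had an unadjusted p under 0.05. Over all 10863 genes an edgeR p of 0.0211 ranked 427 in this comparison and a p of 0.0544 ranked 855. The median log2 fold change was 0.13, beside 0.013 over all genes. CPM values did not overlap for 6 of the 10 genes, against 28.3% of all genes. With the date term this comparison rests on CD103 negative replicate 3 as its only control.

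Tlr12 and Tlr3 came nearest to a call. Tlr12 had a log2 fold change of 0.60 (SE 0.10, edgeR adjusted p 0.0662), with both CD103 low libraries of 2013 at 218 and 220 CPM beside 145 CPM in the CD103 negative library of that date and 189 and 191 CPM in the earlier ones. Within the libraries of 2013 alone, with 1 CD103 negative library as the control, the log2 fold change was 0.59. DESeq2 called Tlr12 over all 7 libraries (0.59, adjusted p 0.022), adjusting over fewer genes than edgeR. With CD103 negative replicate 3 and the date term left out the difference was 0.18 (SE 0.079, edgeR adjusted p 0.186). Tlr3 had a log2 fold change of 0.37 (SE 0.10, edgeR adjusted p 0.284), between 0.34 and 0.38 in all 15 alternatives. It was called in the 2 of them that set CD103 low cells against CD103 negative replicates 1 and 2, with the replicate block (edgeR adjusted p 0.0221) and with replicate 3 and the date term left out (edgeR adjusted p 0.029).

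Tlr9, Tlr11 and Tlr13 depended on which control stood for CD103 negative cells. Against CD103 negative replicate 3, their log2 fold changes in CD103 low cells were 0.11 (SE 0.13), 0.20 (SE 0.10) and 0.13 (SE 0.11), with edgeR adjusted p of 0.911, 0.746 and 0.856. Against CD103 negative replicates 1 and 2, with replicate 3 and the date term left out, they were 0.52, 0.40 and 0.42 and passed (edgeR adjusted p 0.0209, 0.0173 and 0.0178). The date term, which compares CD103 negative replicate 3 with replicates 1 and 2, was 0.44 (SE 0.13) for Tlr9, 0.23 (SE 0.10) for Tlr11 and 0.32 (SE 0.11) for Tlr13, and -0.39 (SE 0.10) for Tlr12. By edgeR 0 of the 10 genes passed for the date, against 3.46% of all genes (2.16% higher and 1.3% lower). DESeq2 and limma voom called 0 too, and 4 had an unadjusted p under 0.05 by edgeR, a share not counted over all genes. Date and replicate 3 cannot be told apart among the CD103 negative libraries.

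**Figure D4:**
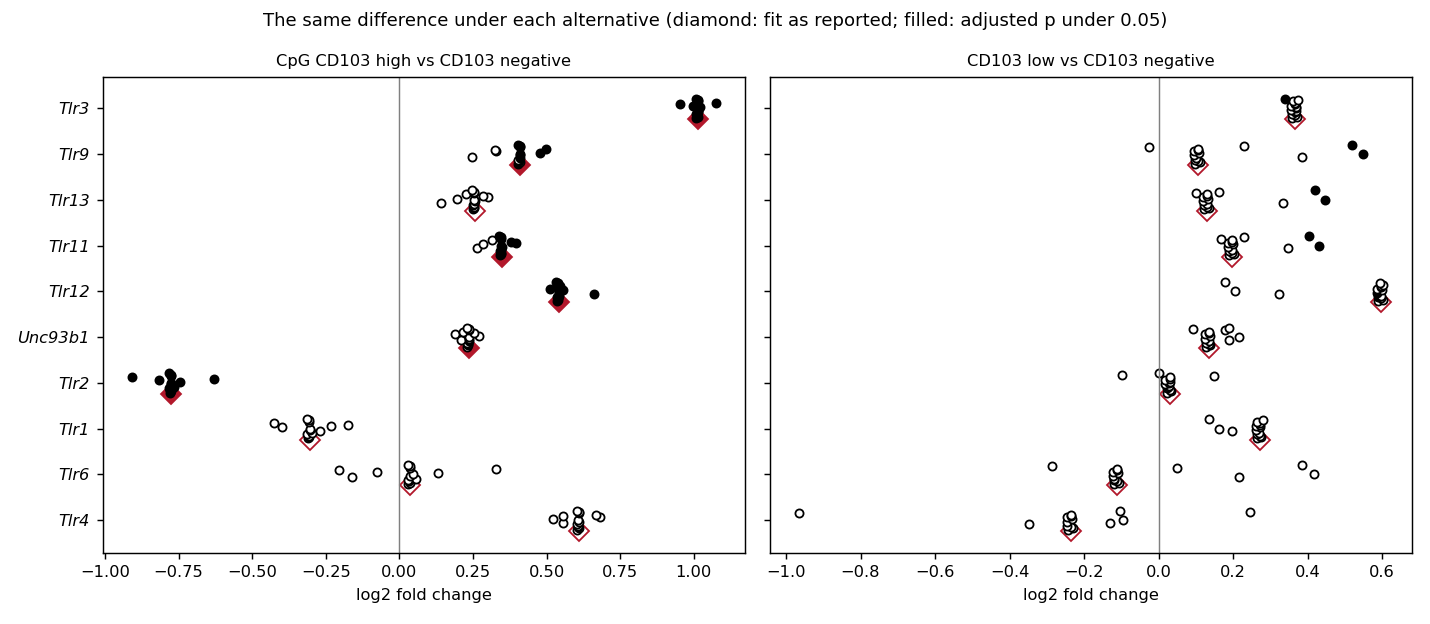
Log2 fold change (x axis) of each gene under the reported fit (red diamond) and each of 15 alternatives (circles) in CpG CD103 high against CD103 negative cells (left) and CD103 low against CD103 negative cells (right); filled symbols had an adjusted p under 0.05. On the left Tlr3, Tlr12 and Tlr2 are filled throughout, while on the right Tlr9, Tlr11 and Tlr13 are filled only in the fits where CD103 negative replicates 1 and 2 serve as the control.

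Tlr3 also separated the treated from the CD103 low cells. Its log2 fold change in CpG CD103 high over CD103 low cells was 0.65 (SE 0.12, 1.57-fold, edgeR adjusted p 0.0181), the only 1 of the 10 genes called there, against 6.22% of all genes (3.44% higher and 2.78% lower). The call was lost without CD103 negative replicate 1 (0.59, edgeR adjusted p 0.0583), CD103 low replicate 1 (0.65, edgeR adjusted p 0.094) or CD103 low replicate 2 (0.64, edgeR adjusted p 0.0943). Tlr2 had a log2 fold change of -0.80 (SE 0.23, edgeR adjusted p 0.0668), and was called in 3 of 14 alternatives. CPM values of these groups did not overlap for 7 of the 10 genes, against 58.6% of all genes. This comparison crosses the 2 dates and is the difference of the other contrasts, with which it shares libraries. Fitted and plain values could therefore differ in sign: Tlr12 had a fitted log2 fold change of -0.06 (SE 0.13) and 0.34 with no date term, and Tlr9 0.30 (SE 0.17) and -0.14, none of them called. Tlr12 was called higher in 2 alternatives, with the replicate block (0.34, edgeR adjusted p 0.0216) and with CD103 negative replicate 3 and the date term left out (0.36, edgeR adjusted p 0.0135).

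The genes around the receptors were counted in 5 lists, to be read against the 14.5% of all genes called higher and the 11.8% called lower in CpG CD103 high against CD103 negative cells. Of 12 tested genes for trafficking and folding of the receptors, 1 rose and 1 fell, a smaller share than the 26.3% of all genes called, with a median log2 fold change of -0.05. Pikfyve, a lipid kinase of endosomes, had a log2 fold change of 0.82 (SE 0.17, edgeR adjusted p 0.00637) that was lost with no date term or without CD103 negative replicate 1, and Slc29a3, a lysosomal nucleoside transporter, had -0.55 (SE 0.09, edgeR adjusted p 0.00222). Hsp90b1, the chaperone gp96 that folds the receptors and the most abundant of these genes, had 1272 and 1236 CPM in CpG CD103 high cells and 1358, 1524 and 1204 CPM in CD103 negative cells and was not called (-0.20, SE 0.08, edgeR adjusted p 0.0998). Of 5 tested proteases of endosomes and the secretory route that cut the receptors, 1 rose, Furin (0.58, SE 0.10), and 1 fell, Lgmn, the asparagine endopeptidase (-0.63, SE 0.14), with a median of 0.04; 2 calls among 5 genes stand beside the 26.3% of all genes called.

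Of 6 tested accessory proteins of the surface receptors 1 rose and 1 fell, near the 26.3% of all genes called, with a median log2 fold change of -0.29. Cd180, which encodes a relative of TLR4 without a signalling domain, had 602 and 459 CPM in CpG CD103 high cells and 342, 317 and 336 CPM in CD103 negative cells (log2 fold change 0.69, SE 0.14, edgeR adjusted p 0.00515). Cd36, a scavenger receptor that serves TLR2 with TLR6, had 471 and 442 CPM in CpG CD103 high cells, 770 and 746 CPM in CD103 low cells and 642, 558 and 601 CPM in CD103 negative cells. It fell against CD103 negative cells (-0.39, SE 0.09, edgeR adjusted p 0.0114) and against CD103 low cells (-0.73, SE 0.15, edgeR adjusted p 0.0197). The first of these calls was lost without CpG CD103 high replicate 2 or CD103 negative replicate 1, and the second without CD103 negative replicate 1 or any of the CD103 low libraries.

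The signalling genes below the receptors that passed were higher in all but 1 case. Of 22 tested adaptors, kinases and transcription factors, 9 rose and 1 fell, beside 14.5% and 11.8% of all genes, with a median log2 fold change of 0.21. DESeq2 called 6 of the 22 and limma voom 10, beside 1459 and 2791 of all 10863 genes. Myd88, the adaptor of TLR9, had 175 and 151 CPM in CpG CD103 high cells, 110 and 111 CPM in CD103 low cells and 113, 112 and 105 CPM in CD103 negative cells (log2 fold change over CD103 negative 0.53, SE 0.10, edgeR adjusted p 0.00341). Irf7, the factor of interferon induction, had 321 and 290 CPM in CpG CD103 high cells and 126, 172 and 138 CPM in CD103 negative cells (1.03, SE 0.15, edgeR adjusted p 0.000979), and Chuk, a kinase of the NF-kappa B pathway, had 1.24 (SE 0.09, edgeR adjusted p 2.84e-05), its CD103 negative libraries being at 88.9 and 88.2 CPM in 2012 and 133 CPM in 2013. Myd88, Irf7, Chuk, Irf8 and Pik3ap1 kept their calls in all 15 alternatives and Irf5 in 14, whereas Ticam1 kept its call in 10, Irak2 in 6 and Tab2 in 2. The gene that fell was Ticam2, an adaptor of TLR4, with 2.44 and 1.57 CPM in CpG CD103 high cells and 5.71 to 10.2 CPM in CD103 negative cells. Its call was lost with DESeq2 and without CpG CD103 high replicate 2 or CD103 negative replicate 2.

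Among genes that Toll-like receptors induce, the share called in either direction was near that of all genes, and those that passed were lower. Of 18 tested, 0 rose and 5 fell by edgeR, beside 14.5% and 11.8% of all genes and 26.3% in either direction. The median log2 fold change was -0.46. DESeq2 called 3 and limma voom 3, beside 1459 and 2791 of all 10863 genes. At an unadjusted p under 0.05 by edgeR there were 10 in either direction. Over all 10863 genes an edgeR p of 0.0374 ranked 3882 in this comparison and a p of 0.0542 ranked 4358. Ccl5, a chemokine, had 25.7 and 23.3 CPM in CpG CD103 high cells, 64.7 and 59.8 CPM in CD103 low cells and 129, 123 and 116 CPM in CD103 negative cells. Its 3 groups did not overlap, and it fell in CpG CD103 high against CD103 negative cells (log2 fold change -2.36, SE 0.11, edgeR adjusted p 2.97e-06). Ccr7, the receptor that leads dendritic cells to lymph nodes, had 130 and 118 CPM in CpG CD103 high cells and 396, 229 and 229 CPM in CD103 negative cells (log2 fold change -1.34, SE 0.21, edgeR adjusted p 0.00141), between -1.68 and -0.89 over the 15 alternatives. Ccl3, another chemokine, had 3.11 and 1.34 CPM in CpG CD103 high cells and 48.7, 5.82 and 4.90 CPM in CD103 negative cells, and its call was lost in 6 of 15 alternatives, among them those without CD103 negative replicate 1 and without CpG CD103 high replicate 1 or 2. Il1b, an inflammatory cytokine, and Nfkbia, the NF-kappa B inhibitor, made up the 5. CD103 negative replicate 1 was the highest of its group for Il1b (255, 67.5 and 70.9 CPM), for Nfkbia (424, 262 and 215 CPM) and for Ccl3, and without it none of these 3 was called. It was also the highest for every other tested gene of this list except Cd40, as for Ccl4 (49.2, 7.11 and 6.60 CPM) and Cd83 (545, 292 and 344 CPM). The part of this library in the median of the list was not tested. Over the 15 alternatives Il1b kept its call in 6 and Nfkbia in 10. Il12b and Tnf, cytokines of the acute response, were not called, at 65.4 and 71.9 CPM (Il12b) and 118 and 78.7 CPM (Tnf) in CpG CD103 high cells against 70.5, 35.8 and 41.9 CPM (Il12b) and 86.3, 45.9 and 43.8 CPM (Tnf) in CD103 negative cells.

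In CD103 low against CD103 negative cells the same lists held a single call, Ccl5 (log2 fold change -0.90, SE 0.12, edgeR adjusted p 0.0382), which was lost in 5 of 15 alternatives, among them those without CD103 low replicate 1 or 2 and CD103 negative replicate 1 or 2. In CpG CD103 high against CD103 low cells Chuk (1.22, SE 0.14) and Irf7 (0.95, SE 0.24) rose and Ccl5 fell (-1.46, SE 0.17). Ccl5 kept this call in all 14 alternatives, Chuk lost it with no date term, and Irf7 kept it in 8. Ctsl, the protease cathepsin L, was called higher there (2.72, SE 0.57) but was scarce, at 7.32 and 4.71 CPM in CpG CD103 high cells and 2.498 and 2.07 CPM in CD103 low cells, and kept its call in 6 of 14 alternatives. These fitted values include the date term, which was 0.58 for Chuk (SE 0.11, edgeR adjusted p 0.0197) and 1.33 for Ctsl (SE 0.42, not called). The lowest values over the 14 alternatives were 0.64 for Chuk and 1.38 for Ctsl. Chuk had 204 and 213 CPM in CpG CD103 high cells and 139 and 129 CPM in CD103 low cells.

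**Figure D5:**
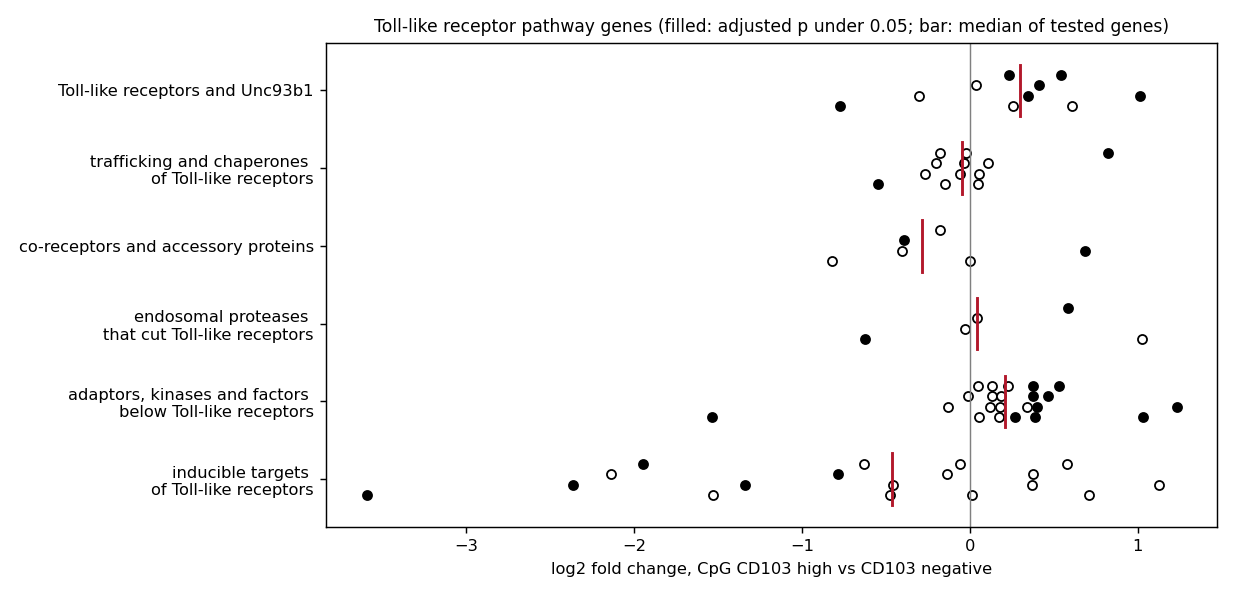
Log2 fold change in CpG CD103 high against CD103 negative cells (x axis) of each tested gene, by list (rows); filled points had an adjusted p under 0.05 and red bars are the median of the tested genes. The signalling list lies mostly above 0 (median 0.21) and the list of inducible targets mostly below (median -0.46). CD103 negative replicate 1 was the highest of its group for every tested inducible target except Cd40.

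Over the 7 libraries the genes with the pattern most like each receptor gene were found by the root mean square difference of centred log2 CPM, among the 7275 other genes whose log2 CPM averaged 4 or more. For Tlr3 these were Ttyh2 (0.069), Jak3 (0.071) and Slc8b1 (0.077), and for Tlr9 Setd1b (0.056), Synj1 (0.063) and Hif1an (0.071). For Tlr11 they were Anpep (0.039), Slamf7 (0.044) and Snap23 (0.050), for Tlr12 Suox (0.054), Ppt2 (0.064) and Plekhb2 (0.064), and for Tlr2 Tmem160 (0.080), Cat (0.082) and Pdcd4 (0.089). Snap23, near in pattern to Tlr11, was also the nearest to Tlr13 (0.042), followed by Chp1 (0.048) and Themis2 (0.055). For Unc93b1 the nearest were Dcp1a (0.021), Slc35c1 (0.024) and Git2 (0.028).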

How the data were processed

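The authors deposited raw read counts per Entrez gene, whole numbers with no normalization, with a length for each gene, per the file headers. CASAVA, Subread 1.4.6, featureCounts and the build mm10 appear in the submitters' processing notes; strand setting, annotation release and the handling of reads mapping to several places are not stated there. A series-wide table, with 7 columns named after no label, was left aside. Symbols and coordinates came from RefSeq (GRCm38.p6), promoters from the same source, and gene overlaps and transcripts from GENCODE M21 on that build.

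Counts were tested with edgeR 4.0.16 (R 4.3.3): filterByExpr, TMM scaling, a quasi-likelihood fit of group and date to all 7 libraries with 3 residual degrees of freedom, and Benjamini-Hochberg adjustment over all 10863 genes. SE is the log2 fold change divided by the square root of F. CPM and RPKM use TMM-scaled sizes and the deposited lengths. With the date term, CpG CD103 high libraries are in effect set against CD103 negative replicates 1 and 2. With the 2013 libraries alone, or with a CpG CD103 high or CD103 low library left out, 1 group holds 1 library of unmeasured spread. Calls from such fits carry that limit. Alternatives were RLE scaling, no filter and a filter at 1 CPM in every library of a group (planned as stricter, it kept 11365 genes), DESeq2 1.42.0, limma 3.58.1 voom, no date term, 1 date alone, a replicate block and leaving out each library. The members, lists and alternatives were chosen with earlier results of these data known. Named were all members, per list the 3 called genes of smallest adjusted p, or its highest gene, and the 3 genes nearest in pattern; Other list genes, such as Ticam2, Il12b and Tnf, were named after their values were seen. With 2 or 3 samples a group, p-values rest on the spread between these samples only. In the edgeR fit the spread of each gene was drawn toward a trend over all genes tested.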

Additional observations from a re-analysis of the deposited data

How the results depend on the processing

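In CpG CD103 high against CD103 negative cells 6 genes were called, 3 with no date term, and 4 to 5 when 1 library was left out. In CD103 low against CD103 negative cells 0 were called, 1 with DESeq2, 1 with the 2013 libraries alone, 0 without any 1 of 6 libraries, and 4 when CD103 negative replicate 3 was left out and the date term with it. In CpG CD103 high against CD103 low cells 1 was called, 2 with no date term, 0 to 1 without any 1 of those 6 libraries, and 3 when CD103 negative replicate 3 and the date term were left out. Over all genes the first comparison called 2860, and 1459 with DESeq2, 1589 with no date term and 1738 without CD103 negative replicate 1. The second called 15 genes, 40 with DESeq2, 1 with no filter on low counts, 187 with the 2013 libraries alone, 1 to 27 without any 1 of the 6 libraries, and 1035 with replicate 3 and the date term left out. The third called 676, 263 with no filter, 382 with DESeq2, 115 to 748 without any 1 of the 6 libraries, and 1668 with replicate 3 and the date term left out.

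The replicate number as a block takes the place of the date term, so CD103 low cells are then set against CD103 negative replicates 1 and 2. With the replicate block the counts were 5, 4 and 3 of the 10 genes in the 3 comparisons, and 3013, 1175 and 1775 of all genes. Differences between replicates 1 and 2 correlated at 0.17 over 10863 genes between CpG CD103 high and CD103 negative cells, and at -0.0064 and 0.0025 for the pairs of CD103 low cells with these groups, and no label says that a number pairs samples. Under the block Tlr6 turned to 0.42 in CD103 low against CD103 negative cells, and in CpG CD103 high against CD103 low cells Tlr6 turned to -0.37, Tlr9 to -0.14, Tlr11 to -0.084, Tlr12 to 0.34, now called, and Tlr13 to -0.19.

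Of the other log2 fold changes that changed sign, none was called in the reported fit. With no date term Tlr6 was -0.16 in CpG CD103 high against CD103 negative cells and 0.21 in CD103 low against CD103 negative cells, and in CpG CD103 high against CD103 low cells Tlr6 was -0.37, Tlr9 -0.14, Tlr11 -0.083, Tlr12 0.34 and Tlr13 -0.19. When CD103 negative replicate 3 was left out, and the date term with it, Tlr6 was 0.38 in CD103 low against CD103 negative cells, and in CpG CD103 high against CD103 low cells Tlr6 was -0.36, Tlr9 -0.12, Tlr11 -0.064, Tlr12 0.36, now called, and Tlr13 -0.17. With 1 of the other libraries left out, Tlr6 ran from -0.21 to 0.33 in CpG CD103 high against CD103 negative cells and from -0.094 to 0.44 in CpG CD103 high against CD103 low cells. In CD103 low against CD103 negative cells Tlr2 ran from -0.097 to 0.15, Tlr4 from -0.96 to 0.25, Tlr6 from -0.29 to 0.049 and Tlr9 from -0.027 to 0.23. The cause of these changes was not tested, other than that leaving out CD103 negative replicate 3 or the date term changes the control. Tlr1, Tlr4 and Tlr6 had the fewest counts of the 10 genes, between 17 and 69 per library.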
